A study of Homo sapiens with 7 samples.

Results

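LRIG1, LRIG2 and LRIG3 and the receptor genes EGFR, ERBB2, ERBB3, ERBB4 and MET were read from a table of 57189 gene identifiers in RH30 cells, a human alveolar rhabdomyosarcoma line. All 8 genes were found by symbol, and all 8 passed the filter on low counts that left 23124 genes for testing. They had been selected on earlier results of the BV6 comparison in these same samples, so their levels and changes are given as a description, with standard errors and no p-value. The question addressed was how the mRNA of these regulators and receptors stood in cells given BV6.

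Poly(A) RNA of 4 untreated samples (replicates 1 to 4) and 3 samples given 5 µM BV6 for 24 h (replicates 2 to 4) was sequenced. BV6 is a bivalent Smac mimetic, a compound that antagonizes inhibitor of apoptosis proteins and thereby activates NF-κB signaling. All samples were RH30, with the genotype given as wild type, and the study used a GFP/Luciferase-expressing version of the line throughout. A single cell line was used. The paper calls the samples in its RNA sequencing heat map biological replicates, while the labels do not say how their cultures were kept apart. The spread between samples of a group may include technical variation as well. Replicate numbers follow the BC label in the sample titles, whose meaning is not stated. The totals ran from 54070030 to 77220882 counts per sample, so 3 counts corresponded to 0.0389 to 0.0557 CPM (counts scaled to a common library size). These totals exceed the reads per library given in the study's methods, and whether both mates of a read pair were counted is not stated, so a count may stand for less than a fragment.

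LRIG proteins are transmembrane proteins with leucine-rich repeats and immunoglobulin-like domains outside the cell. LRIG1 is known as an inhibitor of ERBB receptors and of MET that lowers the amount of receptor protein on the cell, whereas LRIG2 and LRIG3 have less settled roles. EGFR, ERBB2, ERBB3 and ERBB4 form 1 family of receptor tyrosine kinases that pair with each other after ligand binding, and MET is the receptor of hepatocyte growth factor. These receptors signal through the RAS, ERK and AKT pathways, and mRNA levels do not report the amount or the phosphorylation of the receptor proteins.

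The bases before the start sites of the 3 LRIG genes are shown because LRIG1 was called with BV6 and its paralogs were not, a difference between genes that was not itself tested. Each is the 250 bases before a RefSeq start on GRCh38.p14, read 5′ to 3′ on the strand of the gene, and capitals mark GGGCGG on either strand, a box recognized by Sp1. LRIG1 is at chr3:66501122-66501371 on the minus strand, LRIG2 at chr1:113072948-113073197 on the plus strand, and LRIG3 at chr12:58920505-58920754 on the minus strand.
LRIG1: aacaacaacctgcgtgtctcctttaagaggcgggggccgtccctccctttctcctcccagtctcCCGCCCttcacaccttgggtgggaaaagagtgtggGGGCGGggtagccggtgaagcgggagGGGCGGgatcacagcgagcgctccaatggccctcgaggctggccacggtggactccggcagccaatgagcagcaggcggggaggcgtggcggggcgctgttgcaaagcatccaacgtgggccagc
LRIG2: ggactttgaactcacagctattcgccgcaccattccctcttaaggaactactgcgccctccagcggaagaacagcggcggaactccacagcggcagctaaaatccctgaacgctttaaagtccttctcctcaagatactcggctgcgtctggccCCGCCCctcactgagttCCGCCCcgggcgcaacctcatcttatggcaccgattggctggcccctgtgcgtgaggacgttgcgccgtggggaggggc
LRIG3: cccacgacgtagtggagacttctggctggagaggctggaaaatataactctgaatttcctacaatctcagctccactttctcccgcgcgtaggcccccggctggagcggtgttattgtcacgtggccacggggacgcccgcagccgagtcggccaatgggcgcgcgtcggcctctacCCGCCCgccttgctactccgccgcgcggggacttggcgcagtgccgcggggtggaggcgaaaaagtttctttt

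Of the 4 RefSeq starts listed for LRIG1, the one shown lies nearest to the 5′ end of the GENCODE gene, which it follows by 142 bases. The LRIG1 stretch held 3 GGGCGG boxes, LRIG2 held 2 and LRIG3 held 1, and 42.6% of the 35116 stretches of this length in the table held at least 1. None of the 3 held a match to the NF-κB consensus on either strand, which 9.96% of all stretches did, or to TGANTCA, an AP-1 site, which 6.57% did. Among the receptors with an entry (EGFR, ERBB2, ERBB4 and MET), none held the NF-κB consensus, and only ERBB2 held TGANTCA, with 1 match. No boxes of the 3 kinds were looked for beyond these windows. The 7 stretches held 14 to 27 CG dinucleotides against a median of 11 over all stretches. Their GC content was 57.2% to 73.6%, with a median of 58.0% over all stretches.

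LRIG1, the receptor inhibitor of the family, was the member that stood apart with BV6. Its mRNA was at 39.7, 40.3, 37.0 and 43.1 CPM in untreated replicates 1 to 4 and at 107, 80.5 and 104 CPM in BV6 replicates 2 to 4. The lowest BV6 sample lay well above the highest untreated sample, and the means were 40.0 ± 2.54 (SD, n = 4) and 97.2 ± 14.6 CPM (SD, n = 3), a 2.43-fold difference. The log2 fold change by edgeR was 1.28 with a standard error of 0.12. Of the 8 members only LRIG1 was called in the edgeR test at an adjusted p of 0.05, and 0.450% of the 23124 tested genes were called. LRIG1 ranked 49 by log2 fold change among the 91 called genes that were higher. The DESeq2 Wald test, run without a filter on low counts, called 1.70% of its genes and also called LRIG1 and no other member.

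LRIG2, a paralog for which both growth-promoting and growth-restraining roles have been described, was at 33.1, 30.4, 33.8 and 41.4 CPM without BV6 and at 37.9, 47.1 and 43.3 CPM with it. The groups overlapped through untreated replicate 4, which was above BV6 replicate 2. The log2 fold change was 0.30 ± 0.14 (standard error) and was not called. LRIG3, the third paralog, was at 14.9, 11.8, 13.2 and 12.4 CPM in untreated cells. With BV6 it was at 11.6, 16.2 and 12.4 CPM, so its samples interleaved with the untreated ones and the log2 fold change was 0.04 ± 0.16. On the scale of CPM per kb of merged exons, LRIG1 made up 53.2% ± 2.20 (SD, n = 4) of the summed LRIG level in untreated samples and 70.5% ± 6.07 (SD, n = 3) in BV6 samples. With the counts of overlapping genes taken off, as described for SLC25A26 after the plot of counts by sample, the shares were 39.7% ± 2.28 and 62.7% ± 7.20.

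**Figure D1:**
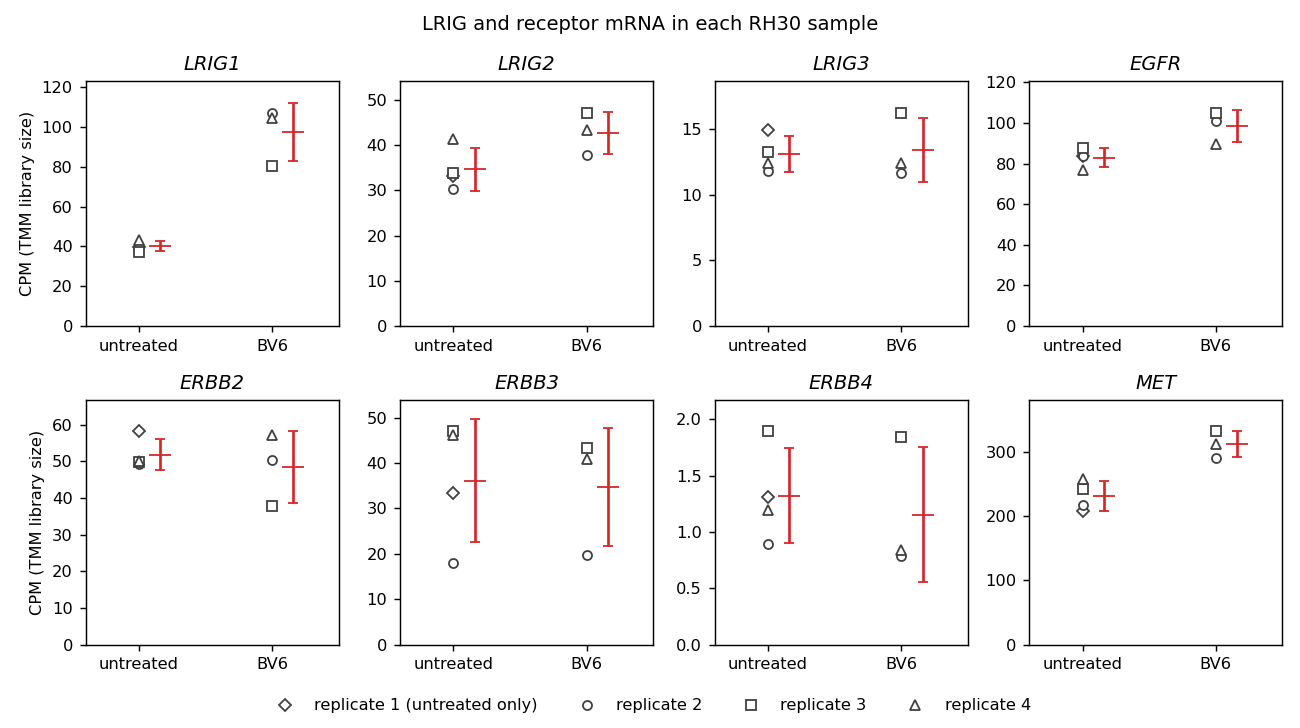
CPM on the TMM library size (vertical axes, each from 0) of the 8 genes in each sample, by group. Open symbols are samples with their replicate number, and red bars are the group mean ± SD (n = 4 untreated, n = 3 BV6). The BV6 samples of LRIG1 sit between 80.5 and 107 CPM, above all 4 untreated samples, and those of EGFR and MET also lie above their untreated samples, by less.

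Counts of LRIG1 share bases with a gene on the other strand. LRIG1 lies at chr3:66378797-66501263 (GRCh38, GENCODE 44, minus strand), and its exons share 2669 bases, 37.9% of their merged length, with those of SLC25A26, a mitochondrial carrier gene that transports S-adenosylmethionine. The shared bases fall between 66378797 and 66386301, at the 3′ end of LRIG1. The library kit kept strand, but whether the counting used it is not stated, so reads in these bases cannot be told apart. SLC25A26 was at 17.7, 18.3, 17.1 and 18.0 CPM untreated and at 36.1, 28.3 and 34.0 CPM with BV6. Its log2 fold change was 0.88 ± 0.12, and no p-value is given because its counts may hold reads of LRIG1. When every SLC25A26 count was taken off LRIG1, 22.2 ± 2.17 CPM (SD, n = 4) were left in untreated samples and 64.4 ± 10.6 CPM (SD, n = 3) in BV6 samples. The log2 fold change of what was left was 1.53 ± 0.14, and LRIG1 was called, in a fit added after the data were seen. SLC25A26 rose less than LRIG1, so taking off its counts had to raise the log2 fold change. The fit is therefore no check on the size of the LRIG1 change. It can also remove more reads than lie in the shared bases.

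SLC25A26 was also the gene most like LRIG1 over the 7 samples, with a Pearson r of log2 CPM of 0.997 among 17058 genes with a mean of at least 1 CPM. Whether reads in the bases that these genes share entered both counts, and so this r, was not tested. AC040977.2 came next with r = 0.994 and TGIF2, a transcriptional repressor of TGF-β signaling, with r = 0.989. These correlations describe 7 samples that fall into 2 groups. AC040977.2 was at 5.15 ± 0.19 CPM in the 4 untreated and at 12.2 ± 1.12 CPM in the 3 BV6 samples. Its log2 fold change was 1.25 ± 0.13. TGIF2 was at 80.9 ± 1.18 CPM and 101 ± 6.43 CPM, with a log2 fold change of 0.33 ± 0.09 that was not called. SLC25A26, AC040977.2 and TGIF2 were the genes most like LRIG1 over these same samples, so no p-value is given for them.

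MET, the receptor of hepatocyte growth factor, was at 208, 217, 242 and 258 CPM in untreated replicates 1 to 4 and at 291, 332 and 313 CPM in BV6 replicates 2 to 4. Every BV6 sample was above every untreated sample, and the means were 231 ± 23 (SD, n = 4) and 312 ± 20.4 CPM (SD, n = 3). The log2 fold change was 0.43 ± 0.11 and was not called. EGFR, the founding receptor of the ERBB family, was at 83.5, 83.9, 87.6 and 76.7 CPM untreated. With BV6 it was at 101, 105 and 89.5 CPM, again without overlap but with the lowest BV6 sample only just above the highest untreated one. Its log2 fold change was 0.25 ± 0.10 and was not called. In all, 3 members (LRIG1, EGFR and MET) had every BV6 sample above every untreated sample, an ordering that 4.94% of all tested genes showed. No member had every BV6 sample below, as 3.89% of all tested genes did, and 5 members overlapped.

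ERBB2, the family member without a ligand of its own, was at 58.1, 49.1, 49.7 and 50.1 CPM in untreated samples and at 50.3, 37.9 and 57.1 CPM with BV6. BV6 replicate 3 was lowest of all 7 samples and the other BV6 samples lay inside the untreated range, and the log2 fold change was −0.10 ± 0.15. ERBB3, whose kinase domain has little activity of its own, was at 33.5, 18.0, 47.0 and 46.1 CPM untreated and at 19.7, 43.4 and 41.0 CPM with BV6. The replicates numbered 2 were the lowest in both groups, and the log2 fold change of −0.06 had a standard error of 0.35. With the replicate number as a block in the fit it was −0.05 with a standard error of 0.11. ERBB4, a receptor of neuregulins, had only 44 to 114 counts in a sample. It was at 1.31, 0.89, 1.89 and 1.20 CPM untreated and at 0.784, 1.84 and 0.836 CPM with BV6, with replicate 3 the highest in both groups. Its log2 fold change was −0.19 ± 0.37, or −0.24 ± 0.23 with the block. A change of ERBB4 smaller than the spread between its samples was not detectable.

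**Figure D2:**
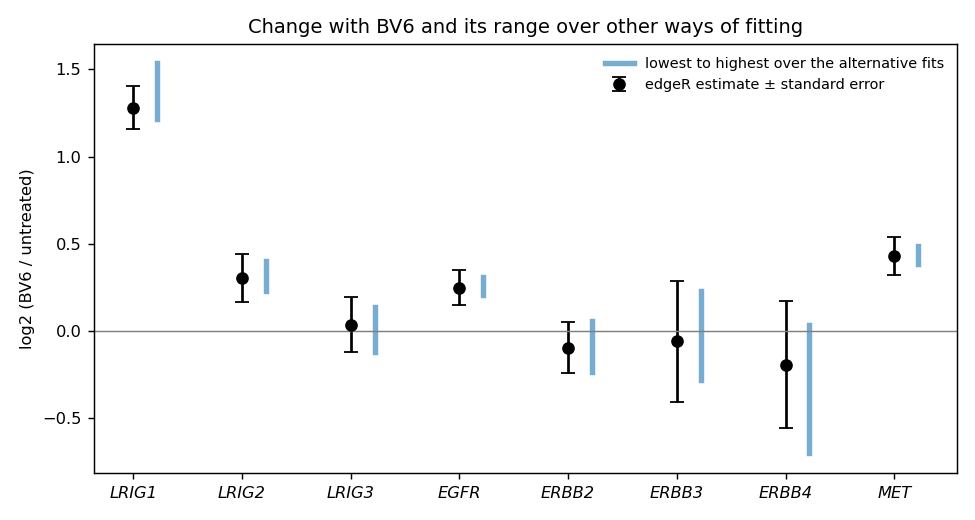
Log2 ratio of BV6 to untreated samples (vertical axis) for the 8 genes. Points with bars are the edgeR estimate ± standard error, and blue lines run from the lowest to the highest value over the 14 alternative fits (those without overlapping genes exist for 4 genes only). LRIG1 lies above 1 throughout, whereas the lines of LRIG3, ERBB2, ERBB3 and ERBB4 cross 0.

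By log2 fold change 5 members were higher and 3 were lower, with a median of 0.14 against −0.01 over all tested genes. The signs of LRIG3, ERBB2, ERBB3 and ERBB4 changed in at least 1 alternative fit, so no direction is given for them. Between same-numbered samples the log2 ratios of LRIG3, ERBB2 and ERBB3 had mixed signs. Those of ERBB4 were −0.19, −0.04 and −0.52 for replicates 2, 3 and 4. The BV6 samples also differed among themselves. BV6 replicate 3 had the highest value of the 3 BV6 samples in 6 members and the lowest in the other two, which were LRIG1 and ERBB2.

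Per length of merged exons, MET had the highest level of the 8 genes in untreated cells, at 32.0 ± 3.18 CPM per kb (SD, n = 4). LRIG1 followed at 5.68 ± 0.36, EGFR at 5.20 ± 0.29 and ERBB2 at 5.01 ± 0.41 CPM per kb, and the ranges of LRIG1 and EGFR, and of EGFR and ERBB2, overlapped. ERBB3 at 3.09 ± 1.16, LRIG2 at 2.78 ± 0.38 and LRIG3 at 2.22 ± 0.23 CPM per kb formed the next step, with overlapping ranges between neighbours, and ERBB2 lay above the range of ERBB3. ERBB4 was lowest at 0.102 ± 0.032 CPM per kb. Among BV6 samples LRIG1 was at 13.8 ± 2.07 CPM per kb (SD, n = 3), below MET at 43.2 ± 2.82 and above EGFR at 6.18 ± 0.50, with gaps on both sides. With the longest transcript as the length, ERBB2 at 10.5 ± 0.86 and EGFR at 8.37 ± 0.46 CPM per kb came before LRIG1 at 7.46 ± 0.47 in untreated cells, so the order of these 3 depended on the length used. It also changed when all counts of overlapping genes were taken off, with the merged length kept. This can remove more reads than lie in shared bases, which were 5.53% (MIEN1) and 1.40% (PGAP3) of ERBB2 exons. After this subtraction untreated EGFR was at 5.06 ± 0.28 and LRIG1 at 3.16 ± 0.31 CPM per kb. ERBB2 was then at 2.74 ± 0.29 CPM per kb, so that LRIG1 and ERBB2 both lay below the range of EGFR. In BV6 samples LRIG1 was at 9.14 ± 1.5 CPM per kb by this count, still above EGFR at 6.05 ± 0.52 and below MET.

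**Figure D3:**
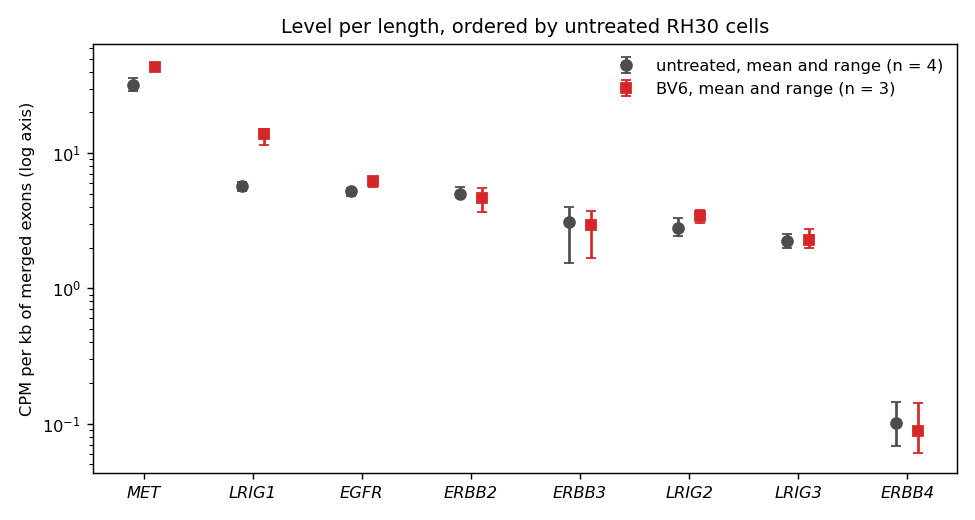
Level of each gene in CPM per kb of merged exons (vertical axis, log scale), ordered by the untreated mean. Circles are untreated and squares are BV6 samples, with bars from the lowest to the highest sample. MET is highest at 32.0 CPM per kb in untreated samples and ERBB4 lowest at 0.102.

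The regulator and its receptors were also set against each other within each sample, on the per-kb scale. LRIG1 over the summed level of the 5 receptors was 0.132, 0.138, 0.109 and 0.124 in untreated replicates 1 to 4 and 0.285, 0.190 and 0.255 in BV6 replicates 2 to 4. The lowest BV6 ratio was above the highest untreated ratio, and the means were 0.126 ± 0.012 (SD, n = 4) and 0.244 ± 0.049 (SD, n = 3). Against MET alone the ratio was 0.179 ± 0.018 untreated and 0.322 ± 0.066 with BV6. Against the 4 ERBB genes it was 0.427 ± 0.055 and 0.996 ± 0.182. MET made up 70.4% ± 2.21 of the summed receptor level in untreated samples and 75.6% ± 0.96 in BV6 samples. These ratios restate the member values above and carry no test. They depend on how reads of overlapping genes are assigned. With all counts of those genes taken off, in shared bases or not, LRIG1 over the summed receptors was 0.0738 ± 0.0081 untreated and 0.169 ± 0.036 with BV6. The lowest BV6 ratio was then 0.128 and the highest untreated ratio 0.0792.

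Exons of other members overlap genes on the opposite strand as well. ERBB2 shares 571 bases with MIEN1 and 144 with PGAP3, EGFR shares 186 with EGFR-AS1, and LRIG2 shares 1563 with the pseudogene RLIMP2. With all counts of these genes taken off, the log2 fold changes were −0.23 for ERBB2, 0.26 for EGFR and 0.27 for LRIG2, and none was called. None of the 4 overlapping genes was called by edgeR (adjusted p from 0.392 for RLIMP2 to 0.924 for EGFR-AS1). EGFR (chr7:55019017-55211628) and MET (chr7:116672196-116798377) lie on the same chromosome, as do LRIG3 (chr12:58872149-58920504) and ERBB3 (chr12:56076799-56103505). LRIG2 lies at chr1:113073198-113132260, ERBB2 at chr17:39687914-39730426 and ERBB4 at chr2:211375717-212538841.

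Of the nearest genes without shared exons on either side of the members, 9 of 16 had enough counts to test, and 0 were called by edgeR, with 0 at an unadjusted p under 0.05. Their log2 fold changes ran from −0.16 for CPS1 below ERBB4 to 0.45 for LINC02388 below LRIG3. The others tested were SLC16A1-AS1 and MAGI3 beside LRIG2, SEC61G beside EGFR, RPS26 and PA2G4 beside ERBB3, and CAV1 and CAPZA2 beside MET. The neighbours of LRIG1, RN7SL482P and RPL21P41, had at most 2 counts in any sample. RPS6P22, ELDR, PNMT, GRB7 and LINC01878 were likewise too low to test.

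The rest of the pathway was followed in 7 lists of 146 genes, of which 113 were tested. By edgeR 0 were called in either direction, with 9 higher and 12 lower at an unadjusted p under 0.05. These 21 were 18.6% of the tested list genes, and 8.39% of all tested genes had such a p. The lists were chosen with earlier results of these data known. Their shares and p-values, here and in the list paragraphs that follow, are therefore a description. DESeq2 without a filter on low counts called 4, namely DDR2 and ROR1 higher and SPRY1 and SPRY2 lower. The median log2 fold change was 0.02 over the 113 genes and −0.01 over all genes tested.

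Of the 11 ERBB ligand genes 9 had a mean under 1 CPM over the 7 samples. In this list 5 were tested and 0 were called, 0 also at an unadjusted p under 0.05 and by DESeq2. HBEGF, which binds EGFR and ERBB4, was at 20.2 ± 2.6 CPM (SD, n = 4) and 23.2 ± 3.03 CPM (SD, n = 3), with an adjusted p of 0.762 by edgeR. NRG4, a ligand of ERBB4, was at 1.17 ± 0.37 and 1.26 ± 0.48 CPM. TGFA was at 0.855 and 0.571 CPM, EGF at 0.283 and 0.223 CPM, and NRG1 at 0.187 and 0.140 CPM. AREG, EREG, BTC, EPGN, NRG2 and NRG3 were too low to test, with group means of at most 0.133 CPM, the BV6 mean of NRG3.

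HGF itself, the ligand of MET, had means of 0.0443 CPM untreated and 0.101 CPM with BV6 and was too low to test, as was HPN at 0.0819 and 0.158 CPM. Of the 7 genes for HGF and its processing, 5 were tested and 0 were called, 0 also at an unadjusted p under 0.05 and by DESeq2. PLAU, the urokinase that can cleave pro-HGF, was at 128 ± 8.99 and 132 ± 9.43 CPM (adjusted p = 0.934, edgeR). SPINT2, an inhibitor of HGF-activating proteases, was at 1.06 and 0.939 CPM. HGFAC at 0.269 and 0.296, ST14 at 0.181 and 0.268 and SPINT1 at 0.133 and 0.180 CPM were all near the lower limit of what could be tested.

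Among 26 other receptor tyrosine kinases 20 were tested, 11 with a positive and 9 with a negative log2 fold change, and 0 were called by edgeR. An unadjusted p under 0.05 was found for 7, or 35.0%, against 8.39% of all tested genes. DDR2, a collagen receptor, was at 84.7 ± 10.4 CPM untreated and 132.5 ± 12.3 CPM with BV6, with a log2 fold change of 0.64 ± 0.12 and an adjusted p of 0.0744 by edgeR. ROR1, a receptor for WNT5A, was at 1.99 ± 0.52 and 4.19 ± 0.24 CPM, with a log2 fold change of 1.08 ± 0.22 and an adjusted p of 0.102 by edgeR. Both were called by DESeq2, and DDR2 also by edgeR with the replicate block (adjusted p = 0.0498).

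Between receptor and ERK stand the adaptors and relays, of which 32 of 36 were tested. Log2 fold changes were positive for 19 and negative for 13, 0 were called by edgeR and by DESeq2, and 3 (9.38%) had an unadjusted p under 0.05, against 8.39% of all tested genes. SHC1, an adaptor that binds phosphorylated receptors, was at 74.1 ± 4.50 and 57.1 ± 9.73 CPM (adjusted p = 0.446, edgeR). NRAS, a small GTPase of the RAS family, was at 196 ± 22.8 and 249 ± 32.1 CPM (adjusted p = 0.509, edgeR).

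Other negative regulators of these receptors, and the proteases that shed them or their ligands, did not pass the test either. Of 22 tested genes 17 had a positive and 5 a negative log2 fold change, 0 were called by edgeR and by DESeq2, and 4 (18.2%) had an unadjusted p under 0.05. Over all tested genes 11020 of 23124 had a positive log2 fold change and 8.39% had such a p. PTPN2, a tyrosine phosphatase, was at 15.7 ± 3.06 and 22.7 ± 1.20 CPM (adjusted p = 0.345, edgeR). TNK2, the kinase ACK1 that takes part in EGFR turnover, was at 70.6 ± 22.7 and 35.6 ± 19.8 CPM (adjusted p = 0.492, edgeR).

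Genes that ERK signaling induces, including its feedback inhibitors, had more negative than positive log2 fold changes. All 20 were tested, 5 with a positive and 15 with a negative log2 fold change, with a median of −0.30. Negative values made up 75.0% of this list and 52.3% of all tested genes. None was called by edgeR, and 7 (35.0%) had an unadjusted p under 0.05, against 8.39% of all tested genes. SPRY1, a Sprouty inhibitor of receptor tyrosine kinase signaling, was at 19.0 ± 4.38 CPM (SD, n = 4) and 10.8 ± 1.5 CPM (SD, n = 3), with a log2 fold change of −0.81 ± 0.20 and an adjusted p of 0.175 by edgeR. Its paralog SPRY2 was at 162 ± 42.1 and 96.0 ± 11.2 CPM, with a log2 fold change of −0.75 ± 0.19 and an adjusted p of 0.216 by edgeR. DESeq2 called both.

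**Figure D4:**
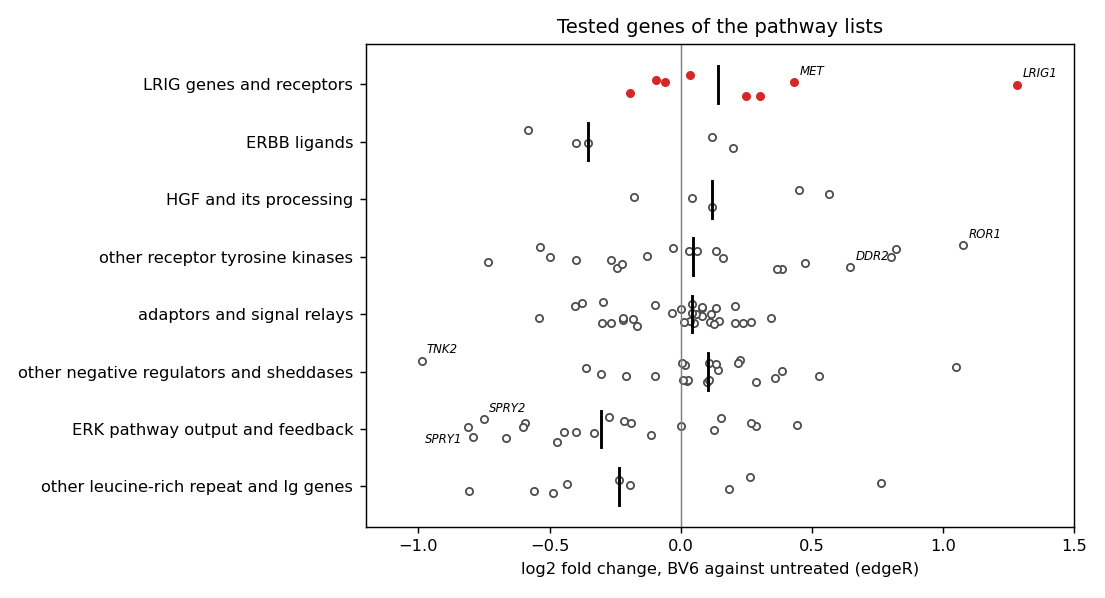
Log2 fold change of BV6 against untreated samples (horizontal axis, edgeR) for the 8 LRIG and receptor genes (red) and for the tested genes of the 7 lists (open circles). Vertical bars are list medians. LRIG1 lies at 1.28, and the genes of the ERK output list lie mostly below 0 with a median of −0.30.

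Other genes with leucine-rich repeats and immunoglobulin-like domains had means under 1 CPM in 19 of 23 cases, and 9 of 23 were tested. Log2 fold changes were positive for 3 and negative for 6, and 0 were called by edgeR and by DESeq2, with 0 at an unadjusted p under 0.05. LRRN1 was at 1.11 ± 0.65 and 0.629 ± 0.311 CPM (adjusted p = 0.722, edgeR). LRFN3, a synaptic adhesion molecule, was at 12.1 ± 3.80 and 8.96 ± 1.85 CPM (adjusted p = 0.699, edgeR).

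Markers of the line were checked in the same samples. The myogenic factors MYOD1 and MYOG were at 344 and 150 CPM in untreated samples and desmin (DES) at 768 CPM, whereas MYF6 had a group mean of at most 0.0463 CPM. The 12 rhabdomyosarcoma markers summed to 2303 to 3280 CPM in untreated and 1447 to 2552 CPM in BV6 samples, lowest in BV6 replicate 3. Of the 11 tested, 9 had a negative log2 fold change, with a median of −0.44, and 4 of these had an unadjusted p under 0.05. EdgeR called 0, while DESeq2 called CHRND, as did edgeR when the replicate block was added (adjusted p = 0.0368). CHRND and CHRNG, subunits of the muscle acetylcholine receptor, were at 240 and 24.8 CPM untreated and 151 and 12.5 CPM with BV6 (adjusted p = 0.153 and 0.426, edgeR). The part of this shift in the member values was not tested, and in bulk RNA fewer cells of a kind and less RNA per cell cannot be told apart. The 15 leukocyte markers summed to 10.8 to 14.6 CPM untreated and 7.22 to 11.8 CPM with BV6, most of it NKG7 at 9.79 and 6.82 CPM, and the group means of PTPRC and CD3E were at most 0.466 CPM. The 10 epithelial markers summed to 11.2 to 24.4 and 7.16 to 25.9 CPM, most of it CLDN4 at 14.8 and 14.5 CPM, and the group means of EPCAM, CDH1 and KRT8 were at most 0.389 CPM. None of the 8 tested leukocyte and 3 tested epithelial markers was called by edgeR or by DESeq2, with 0 at an unadjusted p under 0.05.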

How the data were processed

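Libraries were made by the authors from poly(A) RNA with a stranded Illumina kit and sequenced as paired ends. The authors mapped the reads to GRCh38 with STAR 2.6.1d and counted them per gene over a custom union of Ensembl isoforms. The deposited values used here are these raw counts. The handling of strand, of reads on more than 1 gene and of the mates of a pair is not given in the sources used here, and columns of other samples were not used (0 in the table). From the counts, genes were filtered with filterByExpr of edgeR 4.0.16 (minimum count 10), scaled by TMM and tested with edgeR's quasi-likelihood test on the group alone in R 4.3.3, with Benjamini-Hochberg adjustment over all 23124 genes and a threshold of 0.05. The study's own test was the DESeq2 Wald test on median-of-ratios counts, run here as an alternative with DESeq2 1.42.0 and no filter on low counts. Other alternatives were limma-voom (limma 3.58.1), RLE scaling, 2 other filters, a replicate block, and leaving out each sample in turn. The fits were also run on simulated counts whose changes were larger than those of any member, so changes of the size reported here were not covered. CPM values are on the TMM library size, and a standard error follows ± where a log2 fold change is given, otherwise the SD between samples. Lengths and positions are from GENCODE 44, for the 36327 identifiers that matched a single symbol, and promoters are from RefSeq (GRCh38.p14), which had an entry for 7 of the 8 members. Likeness was Pearson's r of log2 CPM with a prior count of 2.

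The 8 members and the gene lists were chosen with earlier results of these data known. Genes were named by rule: the members, every ligand gene, in each list the 2 genes with the smallest p and any called with or without the block, the 3 genes most correlated with a called member, the nearest gene on each side of a member, and genes with overlapping exons. Other marker genes are named as defining markers.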

Additional observations from a re-analysis of the deposited data

Results flagged for a closer look

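Among 42 genes, the 4 untreated samples were searched for a sample far from the others (Dixon's test of the gap over the range), which chance gives in about 1 in 20 groups, and 3 were found. ERBB2 was at 58.1 CPM in untreated replicate 1 and at 49.1 to 50.1 CPM in the other 3, a gap of 0.893 of the range. BTC was at 0.0356 CPM in untreated replicate 2 and 0 in the other 3, and EPGN at 0.0162 CPM in untreated replicate 4 and 0 in the other 3, a gap of 1 each. Both of these values lie under the 3-count limit of their sample.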

How the results depend on the processing

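LRIG1 was called in all 14 alternative fits, and no other member was called in any. Leaving out each sample in turn gave LRIG1 log2 fold changes of 1.21 to 1.40. Of 108 log2 fold changes of members, 1 moved by more than the spread between replicates: LRIG1 without the counts of SLC25A26, at 1.53. That subtraction had to raise the value, since SLC25A26 rose less than LRIG1. The number of genes called, 104 by the main test, was 242 by edgeR without a filter on low counts, 408 by DESeq2 also without that filter, and 38 to 89 with a sample left out: 41, 65, 38 and 44 without untreated replicates 1 to 4, and 57, 89 and 53 without BV6 replicates 2 to 4. Pathway genes called were 0 higher and 0 lower by the main test, 2 (DDR2 and ROR1) and 1 (SPRY2) by edgeR without a filter, and 2 and 2 by DESeq2 without a filter, so tool and filter changed together in the DESeq2 values. With the longest transcript as the length, untreated levels in CPM per kb were 7.46 for LRIG1, 8.37 for EGFR, 10.5 for ERBB2, 5.77 for ERBB3 and 3.23 for LRIG3. Without the counts of overlapping genes they were 3.16 for LRIG1 and 2.74 for ERBB2, in an alternative chosen after seeing the data. The causes were not tested.

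With the replicate number as a block, 218 genes were called, and LRIG1 had a log2 fold change of 1.27 and remained the single member called. The block called 1 pathway gene higher, DDR2 (adjusted p = 0.0498, edgeR), and 1 lower, SPRY2 (adjusted p = 0.0489, edgeR), and among the rhabdomyosarcoma markers CHRND (adjusted p = 0.0368, edgeR). The deviations of same-numbered samples from their group means correlated at 0.462, 0.438 and 0.085 for replicates 2, 3 and 4. The mean correlation was 0.328 for same-numbered and −0.110 for differently numbered samples. Deviations from a group mean cancel out within the group, so these means are tied to each other and are not separate evidence. As the meaning of the numbers is not stated and replicate 4 correlated weakly, the pairing was used only in this block. Not every sample correlated best with its own number: untreated replicate 4 had its highest correlation, 0.261, with BV6 replicate 3.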
